A study of Mus musculus with 24 samples.

Results

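The contractile machinery of striated muscle is encoded by a set of genes that myoblasts keep low and that rise as the cells become muscle fibres. A list of 45 such genes was followed here across the 4 groups of an siRNA experiment in C2C12 cells, out of 35968 genes with a matched transcript. The list was drawn up by name, but with earlier results of these data known, so counts over it are a description and not independent evidence. It holds sarcomeric myosins and actins, troponins, titin and nebulin. It also holds M-band and Z-disc proteins, the muscle creatine kinase and the proteins of calcium release. Of the 45 genes, 39 passed the filter on low counts and were tested, among 14577 genes tested in all. Myh2, Myl2, Myl3, Mybpc2, Tcap and Myoz1 did not pass it.

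C2C12 is a mouse myoblast line, a cultured precursor of skeletal muscle that fuses into myotubes when serum is withdrawn. All groups were kept as undifferentiated, subconfluent myoblasts and were taken 48 h after transfection. Every library thus comes from the same line and the same stated culture conditions, which do not give the state of the cells at harvest. The control group received a control siRNA (siCont), the second group an siRNA against Keap1 (siKeap1), the third one against Fem1b (siFem1b), and the last one received both (siFem1b/Keap1). KEAP1 and FEM1B are substrate receptors of cullin ubiquitin ligases, KEAP1 for the antioxidant factor NRF2 and FEM1B in the response to reductive stress. Each group held 3 libraries of poly(A) RNA. The labels do not say whether these were separate cultures, so p-values reflect the variation among these libraries alone, and that variation may be technical.

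Each library carried between 31.9 and 43.0 × 1e6 counts assigned to genes. Levels are given in CPM, counts scaled to a common library size, as mean ± SD with n = 3. Keap1 was present at 61.8 ± 1.4 CPM in siCont and at 9.99 ± 1.3 in siKeap1, and Fem1b at 96.9 ± 4.0 in siCont and 13.2 ± 0.42 in siFem1b. Both were also low in siFem1b/Keap1, at 9.38 and 12.7 CPM, so the siRNA labels held in every group. Markers of myoblasts were present throughout, but their level differed between groups. Over 10 genes they summed to 2307 to 2337 CPM in siCont and 1981 to 2094 in siKeap1. The sums were 2743 to 2871 CPM in siFem1b and 2425 to 2487 with both siRNAs. Des, itself one of the 45, was the highest of these markers.

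In the sarcomere, thick filaments of myosin slide along thin filaments of actin. Troponin on the thin filament makes this sliding depend on calcium, titin and nebulin set the length of the filaments, and the M-band and Z-disc anchor them. An action potential is sensed by the calcium channel in the surface membrane, which opens the ryanodine receptor of the sarcoplasmic reticulum, and a calcium pump then returns the ion to the store. Many of these genes have promoters with an E-box, the hexamer bound by MYOD and myogenin, an MEF2 box, or a CArG box, bound by serum response factor (SRF).

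Sequence before a RefSeq start of 5 of the genes is shown because these genes mark the 2 patterns described below. Acta1 and Ldb3 rose with the Keap1 siRNA as well as with the Fem1b siRNA, whereas Actc1, Mylpf and Klhl41 rose with the Fem1b siRNA and were lower when Keap1 was depleted too. Each window holds the 250 bases before the RefSeq transcription start (GRCm38.p6), 5′ to 3′ on the strand of the gene. The windows of Actc1 and Mylpf lie inside the annotated span of the gene, which begins before the RefSeq start used. Capitals mark every match to CAGCTG, the CArG box or the MEF2 box.
Acta1, chr8:123894776-123895025, minus strand: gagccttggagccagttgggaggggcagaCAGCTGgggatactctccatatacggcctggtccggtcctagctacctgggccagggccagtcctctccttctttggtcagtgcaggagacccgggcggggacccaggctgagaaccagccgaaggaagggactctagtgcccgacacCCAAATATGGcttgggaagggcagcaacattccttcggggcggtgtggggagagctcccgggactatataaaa
Actc1, chr2:114052876-114053125, minus strand: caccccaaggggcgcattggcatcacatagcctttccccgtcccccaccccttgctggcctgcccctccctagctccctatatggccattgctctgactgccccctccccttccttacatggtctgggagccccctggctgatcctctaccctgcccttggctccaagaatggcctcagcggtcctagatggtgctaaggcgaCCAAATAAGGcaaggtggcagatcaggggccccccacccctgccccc
Ldb3, chr14:34588682-34588931, minus strand: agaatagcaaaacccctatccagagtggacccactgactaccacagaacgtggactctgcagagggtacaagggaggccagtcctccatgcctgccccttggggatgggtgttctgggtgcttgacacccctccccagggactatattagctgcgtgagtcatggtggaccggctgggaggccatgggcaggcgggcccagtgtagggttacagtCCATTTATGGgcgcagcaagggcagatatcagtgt
Mylpf, chr7:127211358-127211607, plus strand: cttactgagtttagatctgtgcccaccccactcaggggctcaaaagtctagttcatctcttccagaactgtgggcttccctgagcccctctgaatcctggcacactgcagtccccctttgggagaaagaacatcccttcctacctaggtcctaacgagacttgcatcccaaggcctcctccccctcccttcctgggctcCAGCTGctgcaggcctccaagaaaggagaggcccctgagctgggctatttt
Klhl41, chr2:69669870-69670119, plus strand: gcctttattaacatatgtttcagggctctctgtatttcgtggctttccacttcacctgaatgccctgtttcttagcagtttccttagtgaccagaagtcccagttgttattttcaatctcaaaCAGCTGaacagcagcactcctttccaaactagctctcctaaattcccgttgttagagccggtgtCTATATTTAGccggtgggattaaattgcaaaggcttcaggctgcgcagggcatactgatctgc
The CArG box of Acta1 lay 73 to 64 bases before the start, that of Actc1 47 to 38 bases and that of Ldb3 35 to 26 bases before it. CAGCTG lay 221 to 216 bases before the start of Acta1, 51 to 46 before that of Mylpf and 127 to 122 before that of Klhl41, which also had an MEF2 box at 63 to 54. These motifs were searched on both strands, and none of the matches shown overlap. In RefSeq windows of 300 bases, which reach 50 bases past the start, CAGCTG occurred in 16.3% of all 32851 windows and in 17 of the 40 windows of these genes, which belonged to 35 of the 45. The CArG box was in 1.63% of all windows and 7 of the 40, and the MEF2 box in 3.19% and 7 of the 40. Acta1, Actc1, Ldb3, Myh4, Myl3 and Myom1 held a CArG box. Both Acta1, which rose with siKeap1, and Actc1, which fell, held one. A match is a description of the letters only, since binding was not measured.

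The summed level of the 45 genes was highest with the Fem1b siRNA and intermediate with both siRNAs. In TPM, a share of transcripts corrected for length, the sum was 610, 573 and 596 in the siCont libraries, 596, 597 and 636 in siKeap1, 1246, 1266 and 1356 in siFem1b, and 933, 941 and 963 with both siRNAs. The libraries of siFem1b lay above all others, those of siFem1b/Keap1 came next, and siCont and siKeap1 overlapped. Des, which encodes the intermediate filament desmin that links myofibrils, made up 58.6% of the siCont sum (348 ± 12.3 TPM, SD, n = 3), and Tnnt2, the cardiac-type troponin T that embryonic muscle also uses, 25.02% (148 ± 4.0 TPM). Without both of these genes the sum was 96.8 ± 5.4 TPM in siCont, 96.4 ± 2.1 in siKeap1, 671 ± 46.3 in siFem1b and 404 ± 4.8 with both siRNAs. Next in siCont were Actn3 at 21.6 TPM, Tnnc1 at 11.4, Myl1 at 9.88 ± 1.2, Acta1 at 8.24 ± 1.1 and Xirp1 at 8.12 ± 0.61, and neighbours in the order from Tnnc1 (SD 1.4) to Xirp1 overlapped within their SDs. In bulk RNA, more cells that express a gene and more RNA of it per cell cannot be told apart.

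**Figure D1:**
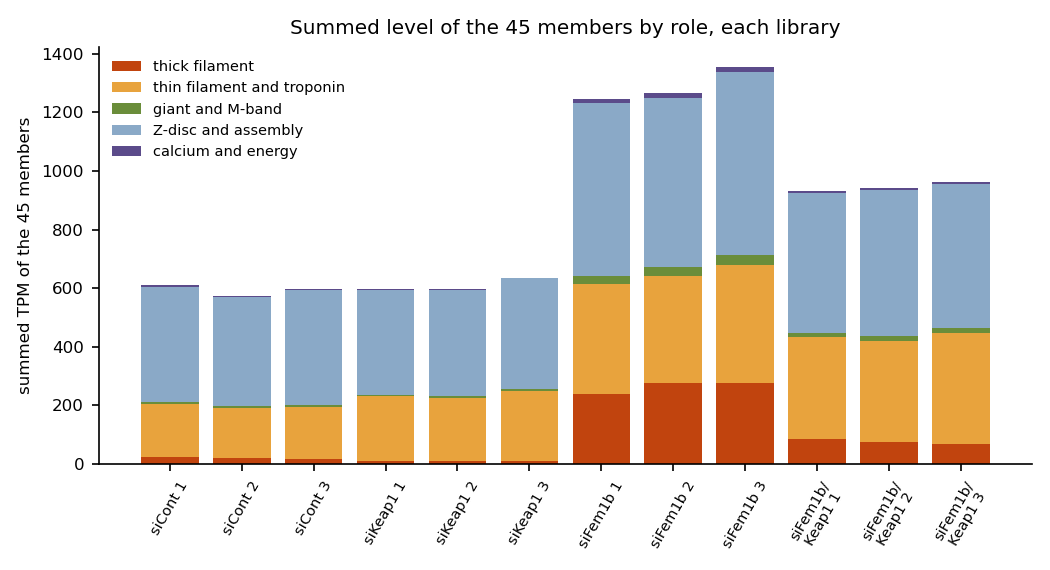
Summed TPM (y axis, starting at 0) of the 45 genes in each of the 12 libraries (x axis), stacked by role. The thick filament part was 20.4 TPM on average in siCont, 9.76 in siKeap1, 265 in siFem1b and 76.8 with both siRNAs.

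With Fem1b depleted, 36 of the 39 tested genes rose and 2 fell, against 30.0% and 32.1% of all genes tested (edgeR quasi-likelihood test, adjusted p under 0.05). Their median log2 fold change was 2.90, that of all genes -0.01, and 32 of the 39 rose at least 2-fold, where 8.49% of all genes did so with the same call. Tnnt2 and Xirp1 were the 2 that fell, and Myh1 was not called, at 0.54 on the log2 scale (adjusted p = 0.22). Because the filter keeps a gene that is high in a single group, low genes could enter through siFem1b. For 8 of the 39 the siCont mean was under the filter's minimum of 0.271 CPM. Of the other 31 genes, 28 rose and 2 fell, and with no filter 37 of the 45 rose and 2 fell.

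Depletion of Keap1 alone moved the median of the list the other way and by less, and 18 of the 39 genes were not called. Of the 39 genes, 16 fell and 5 rose, against 23.8% and 18.4% of all genes tested, with a median log2 fold change of -0.47, where that of all genes was -0.02. None of the 5 reached 2-fold, and 12 of the 16 that fell did so by at least 2-fold, against 1.12% of all genes tested. Some of these 12 rested on few counts over the siKeap1 libraries, such as Lmod3 and Cacna1s (4 each) and Tnnt1 (8). The 5 that rose were Acta1, Ldb3, Xirp1, Casq2 and Tnnt2. Of the 16 that fell, 7 kept the call in every alternative setting and 9 lost it in at least 1, while the rises of Acta1, Ldb3 and Xirp1 kept it in each. With the first run alone 7 genes fell.

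With both siRNAs, 29 of the 39 genes rose against siCont and 1 fell, against 33.8% and 33.7% of all genes tested, with a median log2 fold change of 1.43 (0.01 for all genes). Against siFem1b alone, 34 were lower and 3 higher, where 21.8% and 21.3% of all genes tested were, with a median of -1.26 (0.01 for all genes). Low genes that entered the test through siFem1b favour a lower call here. Of the 31 genes with a siCont mean at or over the filter's minimum, 27 were lower and 3 higher. With no filter, 34 of the 45 were lower and 4 higher. Against siKeap1 alone, 29 were higher and 2 lower, where 32.0% and 31.6% of all genes tested were, with a median of 2.00 (0.0032 for all genes). The median gene of the 39, the 8 under that minimum in siCont included, stood at 41.5% of its siFem1b level. The range was from 7.83% for Actc1 to 206% for Acta1. These comparisons share groups with those above, so their counts are not separate evidence.

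**Figure D2:**
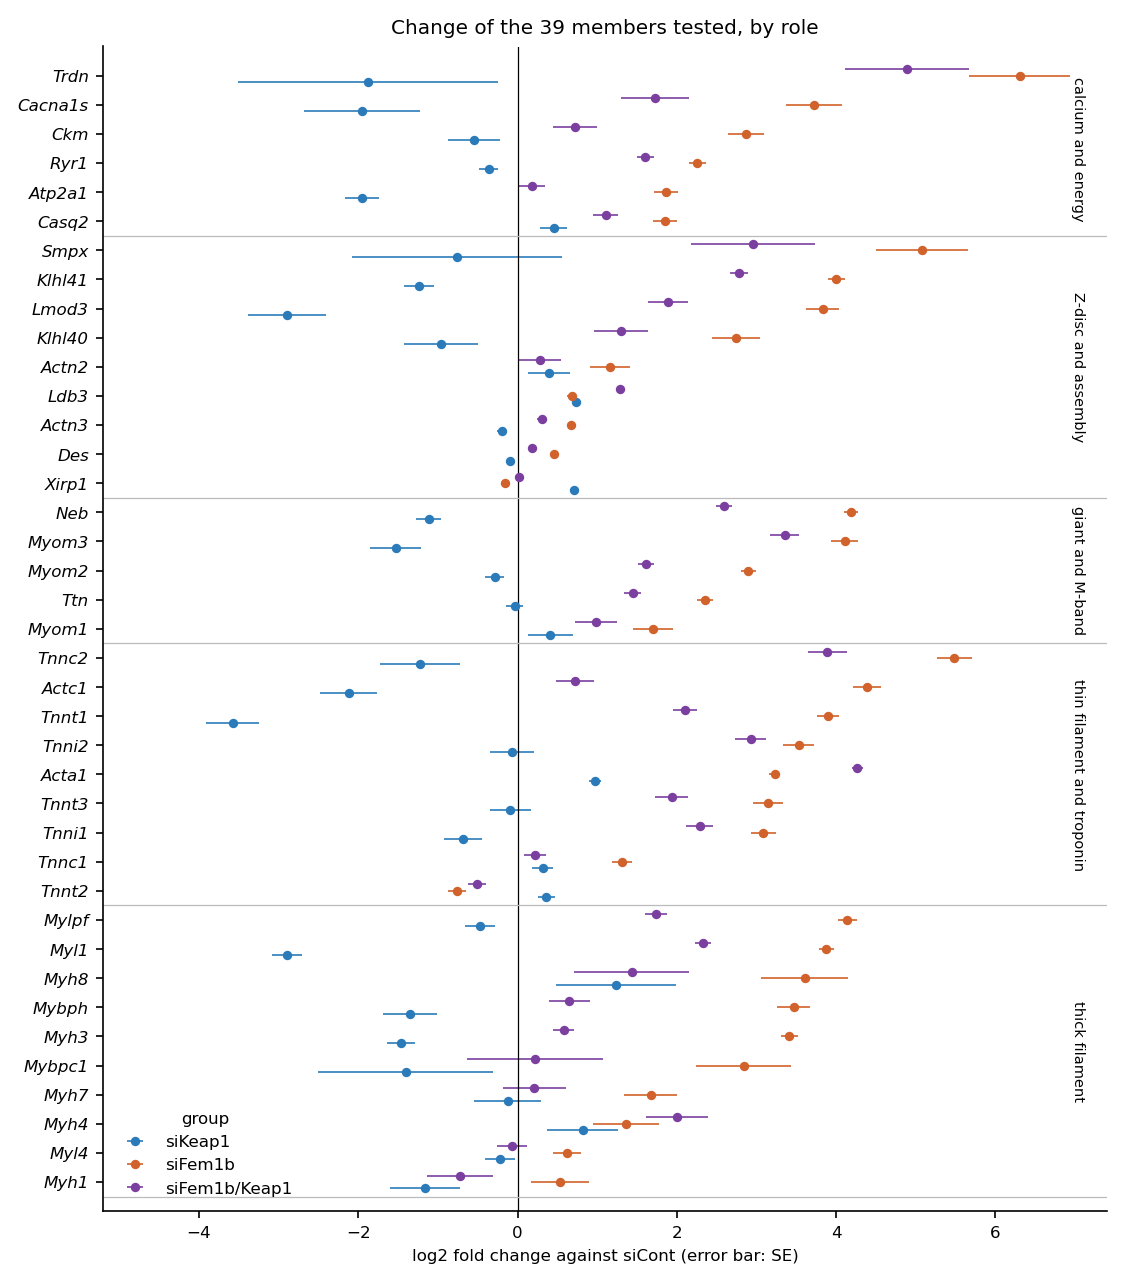
Log2 fold change against siCont (x axis, bars: SE) of the 39 tested genes (y axis), grouped by role, for siKeap1, siFem1b and siFem1b/Keap1. Most siFem1b points lie to the right of 0, most siFem1b/Keap1 points lie between them and 0, and Acta1, Ldb3, Myh4, Tnnt2 and Xirp1 are the 5 genes with a higher value for both siRNAs than for siFem1b alone.

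By median log2 change from siFem1b to siFem1b/Keap1, thick filament genes fell most, at -1.86, before calcium and energy genes at -1.55. By calls they did not lead. Of those tested, 9 of 10 were lower, beside 6 of 6 calcium and energy genes and 5 of 5 giant and M-band genes. Of all genes tested, 21.8% were lower. Of 14 thick filament genes, 10 were tested. Against siCont, 9 rose in siFem1b and 5 in siFem1b/Keap1, where 30.0% and 33.8% of all genes tested did. Myh4, Myh7, Myh8 and Mybpc1, included in these values, had a siCont mean under the filter's minimum. Myl1, an alkali light chain of fast myosin on chromosome 1 (GRCm38, 66924295 to 66945404), stood at 3.16, 3.82 and 2.86 CPM in siCont, 0.312, 0.520 and 0.449 in siKeap1, 44.6, 48.9 and 49.8 in siFem1b, and 17.6, 15.8 and 15.5 with both siRNAs. The 4 groups did not overlap. Myl1 fell 7.45-fold with siKeap1 (log2 fold change -2.90, SE 0.18, adjusted p = 2.97e-10) and rose 14.7-fold with siFem1b (3.88, SE 0.091, adjusted p = 1.73e-16).

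Mylpf, the regulatory light chain of fast muscle, followed siFem1b but differed little between siKeap1 and siCont. Its libraries stood at 1.62, 1.21 and 1.59 CPM in siCont, 1.06, 1.35 and 0.793 in siKeap1, 25.7, 26.3 and 26.9 in siFem1b, and 5.53, 5.03 and 4.27 with both siRNAs. The siKeap1 and siCont libraries overlapped, and their difference (log2 fold change -0.47, adjusted p = 0.048) lost its call in most alternatives and had a value of 0.05 in the first run alone (adjusted p = 0.91). Leaving out any 1 library other than siCont replicate 2, siKeap1 replicate 2 or siFem1b/Keap1 replicate 3 ended it. With siFem1b, in contrast, the rise was 17.6-fold, and siFem1b/Keap1 was 5.30-fold below siFem1b (adjusted p = 1.73e-12).

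Myh3, the embryonic myosin heavy chain, was the one myosin heavy chain above 5 CPM in siFem1b. Its level was 1.98, 1.56 and 1.42 CPM in siCont, 0.593, 0.650 and 0.555 in siKeap1, 16.4, 17.6 and 18.9 in siFem1b, and 2.61, 2.34 and 2.47 with both siRNAs. It rose 10.6-fold with siFem1b, fell 2.75-fold with siKeap1, and with both siRNAs stood 1.49-fold above siCont (log2 fold change 0.58, SE 0.13, adjusted p = 0.00083). Mybph, a myosin-binding protein of the thick filament, had the same order of groups, with means of 0.592 CPM in siCont, 0.235 in siKeap1, 6.63 in siFem1b, while both siRNAs gave 0.931. Its difference between siFem1b/Keap1 and siCont (0.65, adjusted p = 0.033) lost the call without siCont replicate 2 (adjusted p = 0.11), siCont replicate 3 (0.15) or siFem1b/Keap1 replicate 1 (0.19).

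The other myosin heavy chains were near the floor of detection. Myh8, the perinatal form, had 5 counts over the 3 siCont libraries, 12 in siKeap1, 67 in siFem1b and 14 with both siRNAs, a 12.9-fold higher ratio for siFem1b against siCont (95% exact interval 5.28 to 41.1, for counting error only). Myh7, the slow and cardiac form, rose 3.18-fold with siFem1b from 27 counts to 89. Myh4, a fast adult form, differed from most of the list, with 19 counts in siCont, 33 in siKeap1, 51 in siFem1b and 77 with both siRNAs. It rose with siFem1b (log2 fold change 1.36, adjusted p = 0.0081, and 1.03 with adjusted p = 0.061 without siFem1b replicate 3) and with both siRNAs (log2 fold change 2.00, SE 0.39). Myh1, another fast adult form, was at 0.939, 0.510 and 1.03 CPM in siCont, 0.593, 0.468 and 0.0793 in siKeap1, 1.23, 0.865 and 1.55 in siFem1b, and 0.548, 0.573 and 0.391 with both siRNAs. Its call as lower in siKeap1 (-1.17, adjusted p = 0.043) was lost without any 1 library other than siCont replicate 2, siKeap1 replicate 1 and siFem1b replicate 2, with -0.67 (adjusted p = 0.15) without siKeap1 replicate 3. It was lower with both siRNAs than with siFem1b, where the libraries did not overlap (-1.26, adjusted p = 0.017, and 0.075 without siFem1b replicate 3 or 0.063 without siFem1b/Keap1 replicate 3). Myh1, Myh2, Myh3, Myh4 and Myh8 lie in a cluster on chromosome 11 and are similar in sequence, so the sharing of reads between them is uncertain. Mybpc1, the slow myosin-binding protein C, had 6 counts in siCont, 47 in siFem1b and 7 with both siRNAs, and Myl4, the embryonic and atrial light chain, rose 1.53-fold with siFem1b (adjusted p = 0.0052, but 0.37 when the first run was used by itself).

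Among actins and troponins the Keap1 siRNA had opposite signs for the 2 sarcomeric actins. Acta1, skeletal alpha-actin, on chromosome 8 (GRCm38, 123891769 to 123894751), stood at 7.80, 6.75 and 6.11 CPM in siCont, 14.2, 13.3 and 13.2 in siKeap1, 64.5, 62.9 and 65.9 in siFem1b, and 127, 129 and 142 with both siRNAs. Each group lay above the one before it without overlap. The Keap1 siRNA raised Acta1 1.96-fold in cells without the Fem1b siRNA (log2 fold change 0.97, SE 0.079, adjusted p = 1.01e-08) and 2.06-fold in cells with it (1.04, SE 0.054, adjusted p = 2.97e-11). The difference of these effects was 0.07 (SE 0.097, adjusted p = 0.73).

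Actc1, cardiac alpha-actin, which embryonic skeletal muscle also makes, on chromosome 2 (GRCm38, 114047282 to 114053548), stood at 1.04, 0.573 and 0.685 CPM in siCont, 0.343, 0.104 and 0.106 in siKeap1, 15.1, 17.1 and 16.6 in siFem1b, and 1.46, 1.25 and 1.11 with both siRNAs. It rose 20.9-fold with siFem1b and was 12.7-fold lower in siFem1b/Keap1 than in siFem1b (log2 fold change -3.66, SE 0.16, adjusted p = 3.73e-12), the largest such difference in the list. With both siRNAs it was 1.65-fold above siCont (adjusted p = 0.011, and 0.055 without siFem1b/Keap1 replicate 1). Acta1 and Actc1 encode nearly identical proteins, so reads in their coding sequence may be shared between them and with Acta2, smooth muscle actin. Acta2 averaged 455 ± 25.5 CPM in siCont, 745 ± 72.8 in siKeap1, 703 ± 51.3 in siFem1b, while both siRNAs gave 806 ± 45.04, and its part in the Acta1 values was not tested.

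Of the troponin genes, 6 of 7 rose with siFem1b, against 30.0% of all genes tested. Tnnc2, the calcium-binding subunit of fast muscle, stood at 0.443, 0.350 and 0.318 CPM in siCont, 0.250, 0 and 0.238 in siKeap1, 17.0, 14.8 and 18.5 in siFem1b, and 5.56, 5.52 and 5.50 with both siRNAs. Its rise of 44.8-fold (log2 fold change 5.49, SE 0.22, adjusted p = 4.24e-12) was the largest in the list among genes with a siFem1b mean above 5 CPM. Tnnt1, troponin T of slow muscle, was at 1.02, 0.733 and 0.978 CPM in siCont and at 0.156, 0.0260 and 0.0528 in siKeap1, where its 8 counts compared with 102 in siCont, 12.5-fold lower (95% exact interval 6.11 to 29.7). It reached 13.3, 13.4 and 14.5 CPM in siFem1b and 3.99, 4.09 and 3.79 in siFem1b/Keap1.

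The inhibitory subunits Tnni1 (slow) and Tnni2 (fast) and troponin T of fast muscle, Tnnt3, rose 8.497-fold, 11.5-fold and 8.85-fold with siFem1b and kept more of the rise with both siRNAs, at 57.4%, 65.7% and 43.0% of their siFem1b level. Tnni1 was lower in siKeap1 (log2 fold change -0.68, adjusted p = 0.026), a call lost without siCont replicate 1 (adjusted p = 0.12), siCont replicate 3 (0.12) or siKeap1 replicate 2 (0.11). Tnnc1, the calcium-binding subunit of slow and cardiac muscle, stood at 3.52, 4.04 and 2.91 CPM in siCont, 3.71, 4.88 and 4.28 in siKeap1, 8.60, 8.67 and 8.57 in siFem1b, and 4.67, 3.41 and 4.0003 with both siRNAs. Only the siFem1b libraries stood apart from those of the other groups. Tnnt2 was the exception of its class, at 82.2, 83.0 and 81.7 CPM in siCont, 102, 98.5 and 116 in siKeap1, 56.4, 41.6 and 47.6 in siFem1b, and 53.9, 54.0 and 65.4 with both siRNAs. It fell 1.69-fold with siFem1b (log2 fold change -0.76, SE 0.11, adjusted p = 9.77e-05) and 1.43-fold with both siRNAs. Its rise with siKeap1 (0.36, adjusted p = 0.019) lost the call without any 1 of the siCont libraries (adjusted p 0.053, 0.056 and 0.065) or without siKeap1 replicate 3 (0.071).

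**Figure D3:**
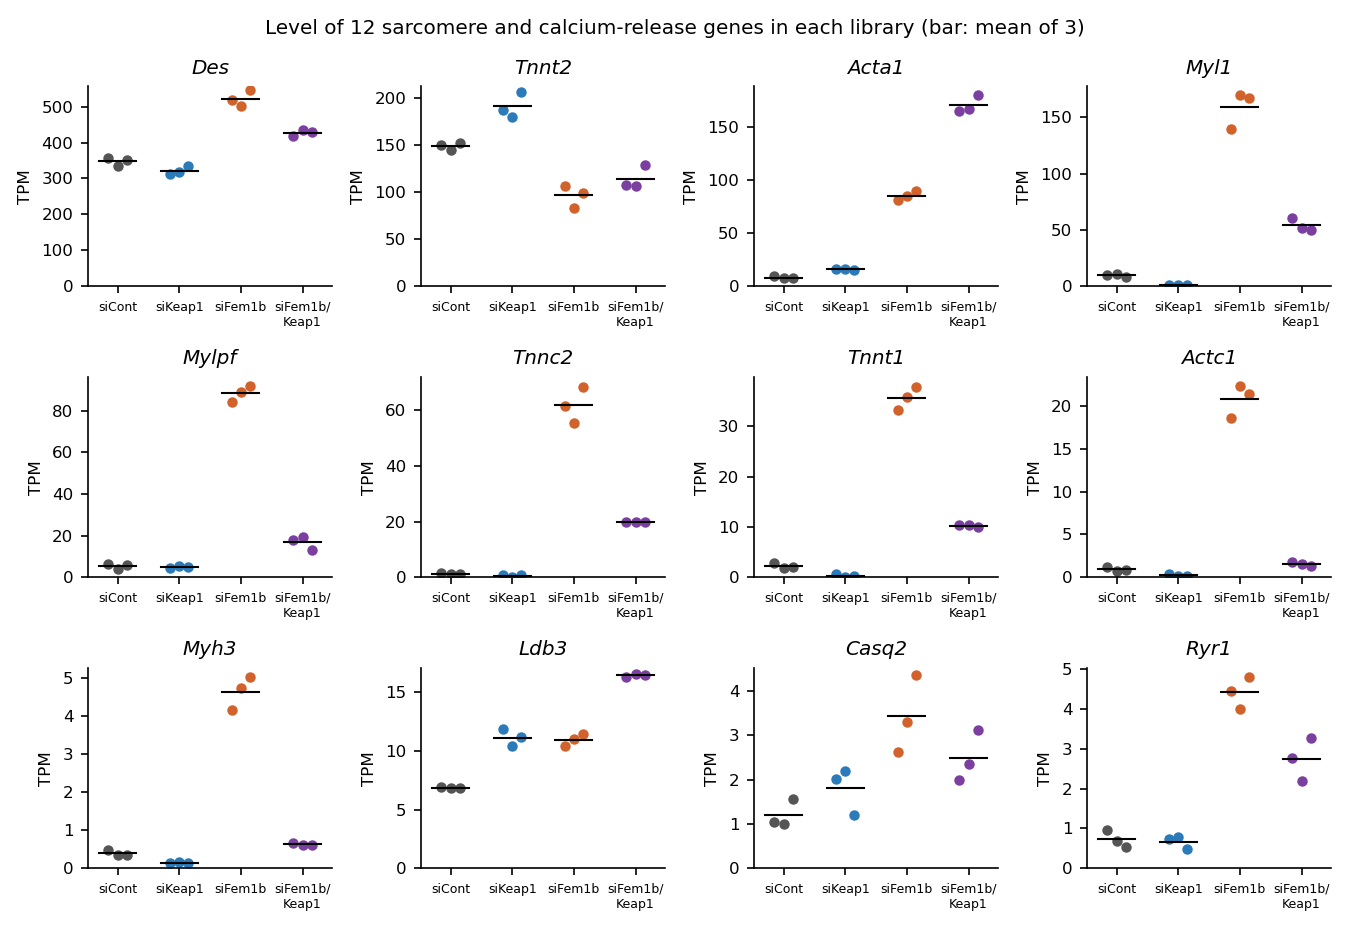
TPM (y axis, starting at 0) of 12 genes in each library (points) with the mean of 3 libraries (bar), by group (x axis). Acta1 and Ldb3 are highest with both siRNAs, whereas Myl1, Mylpf, Tnnc2, Tnnt1, Actc1 and Myh3 are highest with siFem1b alone.

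The giant and M-band genes rose together with siFem1b, 5 of 5, where 30.0% of all genes tested rose. With both siRNAs all 5 were called above siCont, against 33.8% of all genes tested, Myom1 not under every setting. Neb, nebulin, the ruler of the thin filament, was at 2.09, 1.82 and 1.76 CPM in siCont, 1.09, 0.753 and 0.793 in siKeap1, 33.1, 33.9 and 36.4 in siFem1b, and 11.999, 11.4 and 10.8 with both siRNAs, with no overlap between groups. It rose 18.2-fold with siFem1b (log2 fold change 4.19, SE 0.092) and fell 2.17-fold with siKeap1. Ttn, titin, the molecular spring, was at 49.3, 35.6 and 36.4 CPM in siCont, 39.1, 36.7 and 42.9 in siKeap1, 213, 201 and 207 in siFem1b, and 110, 112 and 108 with both siRNAs. The Keap1 siRNA left Ttn within the spread of siCont (log2 fold change -0.03, SE 0.11, adjusted p = 0.83) and lowered it by 0.91 (SE 0.097, adjusted p = 1.57e-05) in cells with the Fem1b siRNA. Myom2 and Myom3, M-band proteins that cross-link myosin, rose 7.44-fold and 17.2-fold. Myom1, the third M-band gene, rose 3.24-fold in counts, but its TPM were 0.689 ± 0.34 in siCont and 0.711 ± 0.19 in siFem1b, and with an offset for transcript length the log2 change was 0.12 (adjusted p = 0.84). The difference of Myom1 between both siRNAs and siCont (0.985) lost its call with that offset (0.21, adjusted p = 0.73) and with the first run by itself (0.12, adjusted p = 0.85).

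Of the 9 Z-disc and assembly genes tested, 8 rose and 1 fell with siFem1b, against 30.0% and 32.1% of all genes tested. Klhl40 and Smpx among them had a siCont mean under the filter's minimum. Des, Actn3, Ldb3 and Xirp1, the 4 with the highest CPM in siCont, changed by less than 2-fold, and the other 5 rose by 2.24-fold (Actn2) or more. Des stood at 679, 678 and 671 CPM in siCont, 610, 609 and 671 in siKeap1, 957, 867 and 957 in siFem1b, and 738, 768 and 783 with both siRNAs, a rise of 1.37-fold with siFem1b (log2 fold change 0.46, SE 0.046, adjusted p = 7.01e-08). Actn3, alpha-actinin of fast fibres, rose 1.59-fold with siFem1b. Ldb3, the Z-disc protein also called ZASP or Cypher, was at 15.8, 15.4 and 15.04 CPM in siCont, 26.4, 24.6 and 26.1 in siKeap1, 23.8, 25.6 and 24.6 in siFem1b, and 37.2, 38.0 and 37.3 with both siRNAs. The 2 single siRNAs overlapped, and both together lay above them. Ldb3 rose 1.67-fold with siKeap1, 1.60-fold with siFem1b and 2.43-fold with both, and the departure from the sum of the log2 changes was -0.13 (SE 0.071, adjusted p = 0.27). Xirp1, an actin-binding repeat protein of sites where fibres grow or mend, was at 33.7, 31.0 and 33.2 CPM in siCont, 52.1, 51.7 and 56.7 in siKeap1, 29.1, 28.9 and 30.1 in siFem1b, and 31.6, 32.98 and 35.2 with both siRNAs. Only siKeap1 stood well apart, 1.64-fold above siCont (adjusted p = 2.78e-09). Its fall with siFem1b (-0.15, adjusted p = 0.020) lost the call without siCont replicate 1 (adjusted p = 0.073), siCont replicate 3 (0.055) or siFem1b replicate 2 (0.062) and with library totals alone (-0.06, adjusted p = 0.40).

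Klhl41, Klhl40 and Lmod3 act together in thin filament assembly, the Kelch proteins as stabilizers of nebulin and leiomodin-3. Klhl41, on chromosome 2 (GRCm38, 69670120 to 69684230), was at 1.12, 1.02 and 1.30 CPM in siCont, 0.530, 0.442 and 0.502 in siKeap1, 17.9, 19.9 and 17.9 in siFem1b, and 8.09, 8.57 and 7.19 with both siRNAs. It rose 16.0-fold with siFem1b (log2 fold change 4.001, SE 0.11) and fell 2.35-fold with siKeap1 (adjusted p = 3.02e-05, but 0.088 when the first run was used by itself). Lmod3 had 33 counts in siCont and 4 in siKeap1, 8.08-fold lower (95% exact interval 2.88 to 31.4), and rose 14.2-fold with siFem1b to a mean of 4.26 CPM. Klhl40 rose from 26 counts to 183, and Smpx, a small protein of the costamere, from 2 counts to 82. Actn2, alpha-actinin of all muscle fibres, rose 2.24-fold in counts with siFem1b, a change that was 0.44 on the log2 scale (adjusted p = 0.19) with an offset for transcript length.

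All 6 genes of calcium handling and energy supply rose with siFem1b, where 30.0% of all genes tested did. All 6 were lower in siFem1b/Keap1 than in siFem1b, against 21.8% of all genes tested. Cacna1s and Trdn among them passed the filter only through the groups with the Fem1b siRNA, which favours a call as higher in siFem1b. Ryr1, the calcium release channel, was at 6.96, 6.75 and 5.45 CPM in siCont, 5.52, 5.04 and 4.33 in siKeap1, 28.2, 28.7 and 34.5 in siFem1b, and 20.1, 18.0 and 19.9 with both siRNAs. Its siKeap1 and siCont libraries overlapped, and the call as lower in siKeap1 (log2 fold change -0.36, adjusted p = 0.024) was lost without siCont replicate 1 (adjusted p = 0.11), siCont replicate 2 (0.077), siKeap1 replicate 2 (0.050) or siKeap1 replicate 3 (0.12). Cacna1s, the voltage sensor of the surface membrane, had 17 counts in siCont, 4 in siKeap1, 237 in siFem1b and 57 with both siRNAs. Its call as lower in siKeap1 (-1.96, adjusted p = 0.037) was lost without siCont replicate 2 (0.066), siCont replicate 3 (0.17), siKeap1 replicate 2 (0.11), siKeap1 replicate 3 (0.14) or siFem1b replicate 3 (0.052). Trdn, triadin, which ties the release channel to the calcium store protein, had 1 count in siCont, 0 in siKeap1, 111 in siFem1b and 40 with both siRNAs. The last of these was at least 13.1-fold higher than siKeap1 (against a floor of 3 counts over the group).

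Atp2a1, the calcium pump of fast fibres, was at 1.80, 1.47 and 1.56 CPM in siCont, 0.405, 0.338 and 0.502 in siKeap1, 5.06, 5.94 and 6.70 in siFem1b, and 1.77, 2.08 and 1.62 with both siRNAs. With both siRNAs it overlapped siCont (log2 fold change 0.18, SE 0.17, adjusted p = 0.35), against a fall of 3.87-fold with siKeap1 and a rise of 3.65-fold with siFem1b. Casq2, the calcium store protein calsequestrin of slow and cardiac muscle, was at 1.07, 1.40 and 1.47 CPM in siCont, 1.97, 1.71 and 1.72 in siKeap1, 4.08, 4.80 and 5.36 in siFem1b, and 2.45, 3.07 and 2.95 with both siRNAs. Its rise with siKeap1 (0.45, adjusted p = 0.043) lost the call without siCont replicate 1 (0.19), siCont replicate 2 (0.055) or any 1 siKeap1 library (0.13, 0.064 and 0.066). Its lower level with both siRNAs than with siFem1b (-0.75) lost the call with the length offset (-0.43, adjusted p = 0.20). Ckm, muscle creatine kinase, rose 7.30-fold with siFem1b and stood at 22.6% of that level with both siRNAs. Its difference between siFem1b/Keap1 and siCont (0.72, adjusted p = 0.026) lost the call without siCont replicate 2 (adjusted p = 0.099), siCont replicate 3 (0.084) or siFem1b/Keap1 replicate 3 (0.068).

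The Keap1 siRNA can be read at 2 places in this design, in cells without and in cells with the Fem1b siRNA, and these comparisons share no library. Of the 39 genes, 29 had a lower value both times, 5 a higher value both times and 5 opposite signs. Called lower both times were 16, and called higher both times were 3, namely Acta1, Ldb3 and Xirp1, while Casq2 was called in opposite directions. The second of these calls for Xirp1 (0.18) was lost without siFem1b/Keap1 replicate 3 (0.12, adjusted p = 0.11). Of the 16 genes, 9 lost the siKeap1 call against siCont in at least 1 alternative setting. Taken singly, the 2 comparisons called 23.8% and 21.8% of all genes tested lower, and 18.4% and 21.3% higher. The share of all genes called alike both times was not counted. Across the 39 genes the 2 sets of log2 changes had r = 0.61 (rho = 0.66), and over all 14577 genes r was 0.62. The points share the transfection design and counting method, and genes are not independent replicates. Read in the same way, the Fem1b siRNA raised 29 genes both without and with the Keap1 siRNA and lowered 2, with r = 0.86 (0.83 over all genes). Taken singly, these 2 comparisons called 30.0% and 32.0% of all genes tested higher, and 32.1% and 31.6% lower.

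**Figure D4:**
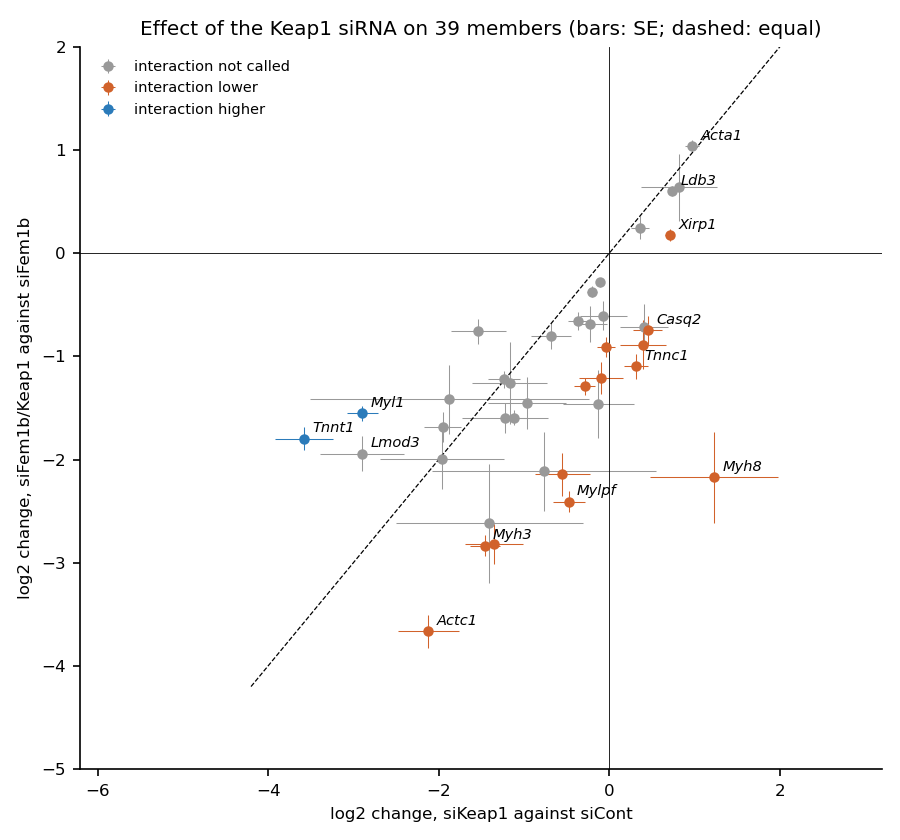
Log2 change with the Keap1 siRNA in cells without (x axis) and with (y axis) the Fem1b siRNA for the 39 tested genes, with SE bars and a dashed line of equal effects. Orange and blue points mark genes whose effects differed by the interaction test, and Acta1 and Ldb3 lie near the line at the upper right.

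The interaction asks whether the change with both siRNAs departs from the sum of the single changes on the log2 scale. Among the 39 genes, 13 were called lower than the sum and 2 higher, where 5.32% and 6.11% of all genes tested were, with a median of -0.48 (0.02 for all genes). Low genes that entered the test through siFem1b favour a lower call here too. Of the 31 genes with a siCont mean at or over the filter's minimum, 12 were called lower and 2 higher. Mylpf had an interaction of -1.93 (SE 0.22, adjusted p = 8.29e-06), Tnnc1 -1.41 (SE 0.19, adjusted p = 4.26e-05), Myh3 -1.37 (SE 0.22, adjusted p = 0.00034), Myom2 -0.9998 (SE 0.14, adjusted p = 0.00011) and Xirp1 -0.53 (SE 0.076, adjusted p = 9.35e-05). Myl1 (1.35, SE 0.21, adjusted p = 0.00032) and Tnnt1 (1.78, SE 0.40, adjusted p = 0.0058) were the 2 higher than the sum, both among the 3 genes with the largest falls in siKeap1 alone, beside Lmod3. Tnnt1 rested there on 8 counts, and its call was lost without siKeap1 replicate 2 (1.36, adjusted p = 0.051). Of the 13 lower calls, 7 kept with each library left out, and those of Myh8, Mybph, Actc1, Tnnt3, Actn2 and Ckm did not. For these the largest adjusted p was 0.12 for Myh8 (-2.80) and 0.087 for Tnnt3 (-1.0012), both without siKeap1 replicate 2, 0.16 for Mybph (-1.23) and 0.47 for Actc1 (-0.81), both without siKeap1 replicate 1, 0.072 for Actn2 (-1.16) without siFem1b/Keap1 replicate 2, and 0.090 for Ckm (-1.33) without siKeap1 replicate 3.

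**Figure D5:**
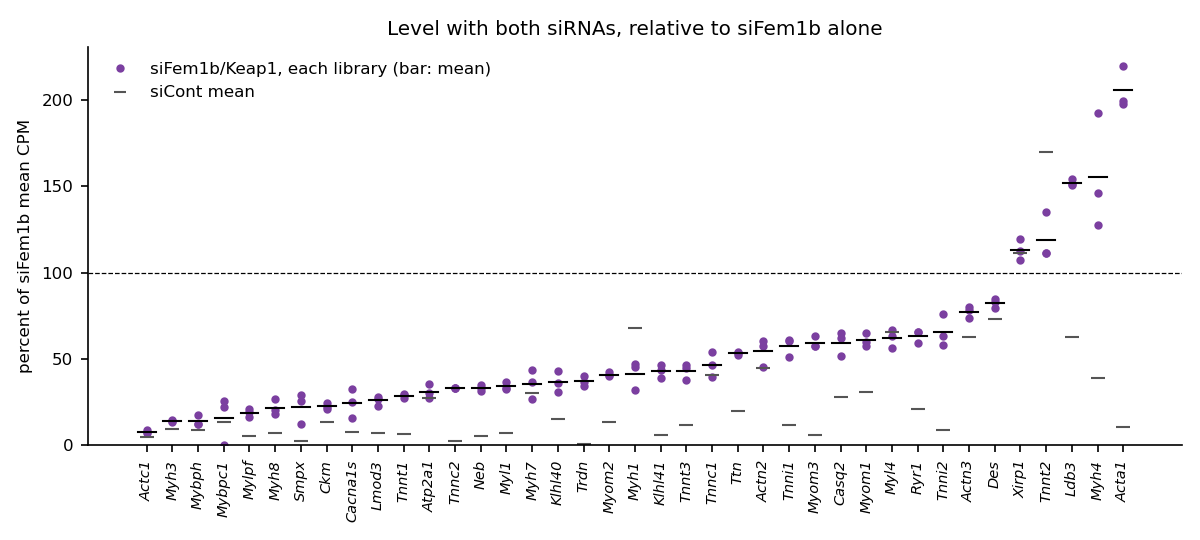
Level with both siRNAs in percent of the siFem1b mean (y axis, starting at 0) for the 39 tested genes (x axis), with each siFem1b/Keap1 library as a point, their mean as a black bar and the siCont mean as a grey dash. Points under the dashed line at 100 are below the siFem1b level, and 5 genes have a mean above it.

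The 6 genes outside the test had few counts in every group. Mybpc2, the fast myosin-binding protein C, had 1 count in siCont, 1 in siKeap1, 27 in siFem1b and 14 with both siRNAs, a 26.1-fold higher ratio for siFem1b against siCont (95% exact interval 4.30 to 1067). Myoz1, the Z-disc protein calsarcin-2, had 8, 2, 22 and 6 counts in the same order, a ratio of 2.66 for siFem1b against siCont (1.14 to 6.898). Tcap, the titin cap, went the other way with 12, 10, 2 and 9 counts, a 6.21-fold lower ratio in siFem1b (1.38 to 57.2). Myh2 had at most 5 counts in a group, and Myl2 and Myl3, the slow and cardiac light chains, at most 4 and 5. Of the 45 genes, 25 overlap an annotated gene on the other strand, such as Myhas at Myh1, Ube2c at Tnnc2 and Nisch at Tnnc1, and reads of the 2 strands cannot be told apart where strand was not used.

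A wider list of 68 other sarcomere and excitation-contraction genes gave a more mixed picture. Of the 53 tested, 40 rose and 6 fell with siFem1b, with a median log2 fold change of 1.24. That is 75.5% and 11.3% of them, where 30.0% and 32.1% of all genes tested were called. With siKeap1, 20 rose (37.7%, against 18.4% of all genes) and 11 fell (20.8%, near the 23.8% of all genes), with a median of 0.13. Against siFem1b alone, both siRNAs gave 23 lower (43.4%, against 21.8%) and 10 higher (18.9%, near the 21.3% of all genes). The 5 with the smallest p among those that rose with siKeap1 were Trim54, a ubiquitin ligase of the sarcomere and microtubules (log2 fold change 2.21, from 6.84 to 31.6 CPM), Dysf, dysferlin of membrane repair (0.865), Jph1, a junctophilin that holds the membranes of the calcium-release unit together (0.85), Xirp2, a relative of Xirp1 (1.55), and Nebl, nebulette (1.53). All 5 also rose with siFem1b, Trim54 by 0.38, Dysf by 1.61, Jph1 by 0.56, Xirp2 by 1.58 and Nebl by 1.65. The 5 with the smallest p among those that fell with siKeap1 were Synpo2l, an actin-bundling Z-disc protein (-1.83), Cavin4, of muscle caveolae (-0.74), Jsrp1, a junctional protein of the sarcoplasmic reticulum (-0.67), Asph, the locus of junctin and of an aspartyl hydroxylase (-0.30), and Ankrd1, a titin-binding protein (-0.30). With siFem1b the first 3 of these rose, Synpo2l by 2.67, Cavin4 by 1.06 and Jsrp1 by 1.79, whereas Asph (-0.51) and Ankrd1 (-0.44) fell. Pdlim3, a Z-disc partner of alpha-actinin, fell with siKeap1 (-0.44) and rose with siFem1b (2.47) and with both (2.65).

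Non-muscle counterparts of the same proteins mostly changed by less than 2-fold. Of 14 genes, 3 rose and 7 fell with siFem1b, 21.4% and 50% of them against 30.0% and 32.1% of all genes. With siKeap1, 6 rose and 2 fell, 42.9% and 14.3% against 18.4% and 23.8%. The medians were -0.09 and 0.04. The cytoplasmic actins Actb and Actg1 fell by 0.37 and 0.33 on the log2 scale with siFem1b, and by 0.27 and 0.23 with library totals alone as the scaling. The non-muscle alpha-actinins Actn1 and Actn4 fell by 0.19 and 0.11 with siFem1b, and neither call held with library totals alone (-0.09, adjusted p = 0.079, and -0.01, adjusted p = 0.84, by edgeR's quasi-likelihood test). The Actn4 call was also lost without siCont replicate 1 (-0.09), siFem1b replicate 2 (-0.06) or siFem1b/Keap1 replicate 3 (-0.09). That scaling moves the median of all genes to 0.09 for siFem1b and 0.13 for both siRNAs against siCont. Lmod1, leiomodin of smooth muscle, was the exception, with a rise of 2.91 with siFem1b and 3.36 with both, and Ckb, the brain-type creatine kinase, rose by 0.81 with siKeap1, 0.59 with siFem1b and 0.94 with both. Myh10, a non-muscle myosin heavy chain, was at 336, 300 and 317 CPM in siCont and at 196, 189 and 193 with both siRNAs.

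The deposited values are per transcript, so the share of a gene's TPM in each transcript could be described. A group was compared with siCont where all libraries of both had at least 1 TPM of the gene. This held for at least 1 group in 17 of the 45 genes. For Mylpf the shift followed the rise. Mylpf-201, which starts at the first base after the window printed above (chromosome 7, 127211608 to 127214298), held 35.7%, 55.8% and 42.0% of the gene in siCont, 11.6%, 20.03% and 28.2% in siKeap1, 88.4%, 92.2% and 91.8% in siFem1b, and 89.0%, 62.1% and 95.5% in siFem1b/Keap1. In TPM it went from 2.34 ± 0.22 in siCont to 80.3 ± 5.0 in siFem1b, while Mylpf-205 and Mylpf-206, which start further upstream, stayed at 1.43 ± 1.1 and 1.71 ± 0.24 TPM in siCont against 1.498 ± 0.44 and 2.10 ± 1.9 in siFem1b. The rise of Mylpf was thus assigned to the transcript that starts at 127211608.

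For Ttn the short transcript Ttn-202, which covers the 5′ end of the gene (chromosome 2, 76913944 to 76982455), held 43.1% ± 3.4 of the TPM in siCont, 36.4% ± 10.6 in siKeap1, 15.8% ± 0.96 in siFem1b and 19.2% ± 2.8 with both siRNAs (SD, n = 3). Its own level was 1.09 ± 0.15 TPM in siCont and 1.55 ± 0.15 in siFem1b. Myom2-201 held 62.0% ± 10.8 of Myom2 in siCont and 85.7% ± 3.1 in siFem1b. Myl1 has 2 start regions, and the downstream one, which gives the shorter alkali light chain, held 91.2% ± 4.9 in siCont, 90.1% ± 10.0 in siKeap1, 90.5% ± 0.94 in siFem1b and 90.9% ± 0.32 with both siRNAs. The siKeap1 share is weakly based, since replicate 1 had 0.830 TPM of Myl1, under the minimum of 1 TPM. The 14.7-fold rise of Myl1 therefore left the use of its starts within the spread of the libraries. These shares are given as a description and were not tested, and kallisto's division of reads among transcripts adds an error that is not known here.

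Markers of other cell types were measured beside these results. The 8 markers of differentiating myocytes, which include Myl1 and Tnnc2 of the list above, all rose with siFem1b, where 30.0% of all genes tested did. They summed to 16.5 to 18.1 CPM in siCont, 8.94 to 9.48 in siKeap1, 168 to 180 in siFem1b and 51.3 to 54.8 in siFem1b/Keap1. Myog, which encodes myogenin, stood at 1.57, 0.0367, 59.3 and 4.97 CPM on average in the same order, so its order of groups was that of Actc1, Myh3 and Mybph. Of 9 smooth muscle markers, led by Des and Acta2, 8 were tested. With siKeap1 5 rose and 1 fell, against 18.4% and 23.8% of all genes tested. The sums were 1331 to 1393 CPM in siCont and 1539 to 1761 in siKeap1. With siFem1b 5 of these markers rose and 1 fell, against 30.0% and 32.1% of all genes tested. Their sums were 1737 to 1962 CPM there, and both siRNAs gave 1772 to 1892. Myh11, the smooth muscle myosin, stayed at or under 0.301 CPM in each library. Among 8 cardiac markers Gata4 led with 33.4 CPM in siCont and Hand2 was at or near 0. Fibroblast markers, led by Col3a1, summed to 1840 to 1866 CPM in siCont, 1127 to 1193 in siKeap1, 3290 to 3386 in siFem1b and 2874 to 2939 with both siRNAs. Epithelial markers, led by Krt19 and Krt14, summed to 42.8 to 48.0 CPM in siCont, 103 to 109 in siKeap1, 82.4 to 90.6 in siFem1b and 148 to 165 in siFem1b/Keap1. Neural markers, led by Tubb3, summed to 229 to 236 CPM in siCont and were higher in all other groups, at 311 to 331 in siKeap1, 307 to 313 in siFem1b and 319 to 330 with both siRNAs. Those of adipocytes, led by Pparg, summed to 31.4 to 32.6 CPM in siCont, 39.5 to 40.0 in siKeap1, 30.5 to 33.9 in siFem1b and 44.7 to 45.7 with both siRNAs. The 6 macrophage and leukocyte markers, led by Cd68, summed to 1.76 to 2.30 CPM in siCont, 4.52 to 5.15 in siKeap1, 2.48 to 2.85 in siFem1b and 6.05 to 6.86 with both siRNAs, and Adgre1 was at 0 in all libraries. The cardiac sums lay between 37.0 and 52.4 CPM, lowest in siCont, and all 6 endothelial markers were under 1 CPM in each library, the highest being Tek, with sums of 1.05 to 1.30 CPM in siCont and 2.45 to 2.83 with both siRNAs. The part of these markers in the changes of the sarcomere genes was not tested.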

How the data were processed

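Per the labels' protocols, poly(A) RNA of 12 libraries was sequenced in 2 runs each. Per the submitters' processing notes, kallisto 0.44.0 and mouse build mm10 were used. The 24 deposited tables give, per the file headers, estimated counts, TPM and an effective length for 118489 transcripts. Other steps by the authors are not given in the sources used here. Transcripts were matched to GENCODE M21 (98.5%), and the authors' estimated counts were summed per gene and over both runs and rounded. The deposited TPM were used for levels and transcript shares only. After filterByExpr (14577 genes), TMM scaling (factors 0.952 to 1.045) and a fit to all 12 libraries with edgeR 4.0.16 (R 4.3.3, robust quasi-likelihood test, 2-sided), the Benjamini-Hochberg adjustment of p ran over all genes within each of 6 comparisons, with a call at adjusted p under 0.05. The common biological coefficient of variation was 0.0503. The fit was tested on simulated data. Where a group had under 30 counts, some comparisons are given as ratios of counts, with a 95% exact Clopper-Pearson interval for counting error only. Others with so few counts, such as Cacna1s in siKeap1 and Myh4 in siFem1b, are given by the edgeR fit without that interval.

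The 45 genes and all lists were chosen with earlier results of these data known. Genes were named by class: those with the largest and smallest change, the highest level, and those against the majority. Of the 68 other genes, up to 5 with the smallest p in each direction could be named, and those described were picked from these, as were the non-muscle genes, after their values were seen. Transcripts could be described where a share moved by 20 percentage points or more, beside Myl1. Those of Myl4 and Tnni2 also met this rule and were left out. An example is Myl4-201, with 40.8% ± 15.9 of the gene in siCont and 2.48% ± 4.3 in siFem1b (SD, n = 3). Alternatives were DESeq2 1.42.0 (size factors, or its Wald test), library totals, no filter, at least 5 CPM in 3 libraries, each run alone, a length offset, a replicate block, a fit to the groups compared, a stricter adjusted p of 0.01, a minimum fold of 1.5 and each library left out.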

Additional observations from a re-analysis of the deposited data

Results flagged for a closer look

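By the interaction test, the effect of the Keap1 siRNA was called different between cells without and with the Fem1b siRNA for 15 of the 39 genes. Of these, 2 were higher and 13 lower, where 6.11% and 5.32% of all genes tested were. Among the 31 genes with a siCont mean at or over the filter's minimum, 2 were higher and 12 lower. The log2 interaction was -3.41 for Myh8, -1.93 for Mylpf, -1.60 for Ckm, -1.54 for Actc1, -1.47 for Mybph, -1.41 for Tnnc1, -1.37 for Myh3, -1.28 for Actn2, -1.20 for Casq2, -1.12 for Tnnt3, -0.9998 for Myom2, -0.88 for Ttn and -0.53 for Xirp1. It was 1.35 for Myl1 and 1.78 for Tnnt1. Myh8 rested on 5, 12, 67 and 14 counts in siCont, siKeap1, siFem1b and siFem1b/Keap1, and had -2.80 (adjusted p = 0.12) without siKeap1 replicate 2.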

How the results depend on the processing

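Counts of genes called are given with the value as reported first. For the 45 genes, adjusted p under 0.01 changed those higher in siKeap1 from 5 to 3, those lower in siFem1b from 2 to 1 and those with a lower interaction from 13 to 7. A 1.5-fold minimum gave 3, 1 and, for those lower in siFem1b/Keap1 against siCont, 0 in place of 1. The minimum of 5 CPM, which tests fewer genes, left 21 of 36 higher and 1 lower in siFem1b, 19 of 29 higher in siFem1b/Keap1 against siCont and 19 of 34 lower against siFem1b. The first run alone gave 7 lower in siKeap1 and 1 in siFem1b, and an interaction higher for 1 and lower for 8. The second run alone gave 1 lower in siFem1b and 1 higher by interaction, library totals 1 lower in siFem1b, and the length offset 1 lower in siFem1b and, by interaction, 1 higher and 8 lower. No filter and the compared groups alone each gave 2 lower in siFem1b/Keap1 against siCont. With libraries left out in turn, 3 to 6 were higher in siKeap1, 1 to 2 lower in siFem1b, 1 to 2 lower in siFem1b/Keap1 against siCont, and 1 to 3 higher by interaction. The other counts of these genes stayed within 1.5 times.

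Signs reversed for Mylpf in siKeap1 against siCont (0.0537, first run alone) and Myom1 in siFem1b/Keap1 against siFem1b (0.0862, length offset). With library totals alone, siFem1b/Keap1 against siCont turned from below to above 0 for Actn1 (0.1035, adjusted p = 0.039) and Actn4 (0.0920, adjusted p = 0.047), which had not passed the test before. The cause was not tested.

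For the 68 other genes, a 1.5-fold minimum gave 9 of 20 higher and 6 of 11 lower in siKeap1, 0 of 6 lower in siFem1b, 1 of 5 lower in siFem1b/Keap1 against siCont, 2 of 10 higher and 13 of 23 lower against siFem1b, 1 of 10 lower against siKeap1, and 2 of 5 higher and 9 of 17 lower by interaction. At adjusted p under 0.01, 6 were higher against siFem1b and 3 by interaction. The 5 CPM minimum left 26 of 40 higher in siFem1b and 15 lower against it. The length offset gave 6 higher against siFem1b, and the first and second run 2 and 3 higher by interaction. With libraries left out these counts ran from 6 to 12 and from 3 to 5.

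Without Des the summed TPM were 245.3 in siCont, 287.3 in siKeap1, 767.0 in siFem1b and 518.2 with both siRNAs. With all 45 genes the last group had 926.4 in the first run alone.

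Library totals alone raised the share of higher among all calls from 48.3% to 60.6% in siFem1b, from 50.1% to 62.1% with both siRNAs against siCont and from 50.3% to 61.7% against siKeap1.

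The replicate numbers did not pair the libraries: same-numbered libraries of different groups had deviations with r from -0.08 to 0.12, other pairs from -0.16 to 0.17. For 4 of 12 libraries the mean r was higher with their own number than with other numbers. A replicate block left 5 higher and 15 lower in siKeap1, 36 higher in siFem1b, and 12 lower by interaction. Its lost calls were Myh1 (adjusted p = 0.063) and Mylpf (0.059) in siKeap1 and the interaction of Actc1 (0.063), and Myom2 in siKeap1 was gained (0.042).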
